A study of Mus musculus with 16 samples.

Results

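The ERBB family of receptors and the epidermal growth factor ligands that bind them were followed across spontaneous lung tumors and their metastases in mice. The members were every probe set of the array that the platform annotation assigns to 1 symbol among Egfr, Erbb2, Erbb3, Erbb4, Areg, Ereg, Hbegf, Tgfa, Btc and Egf. This gave 18 of 22626 probe sets, from 9 of the 10 genes. The 9 receptor probe sets comprised 5 for Egfr, 1 for Erbb2, 2 for Erbb3 and 1 for Erbb4. The 9 ligand probe sets comprised 3 for Tgfa, 2 each for Hbegf and Btc, and 1 each for Ereg and Egf. No probe set carried Areg in that annotation, and its level is described separately from a probe set named in a supplementary list of the study.

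All 16 tumors came from p53R172H∆g/+ K-rasLA1/+ mice, which carry in every cell a latent oncogenic K-ras allele that is switched on by chance recombination in single cells and 1 mutant copy of p53. The 9 metastases were taken from mice 1 to 4, all male: mouse 1 gave a liver, a subcutaneous and an inguinal tumor, mouse 2 a liver tumor, mouse 3 a heart, a mediastinal lymph node and a subcutaneous tumor, and mouse 4 a mediastinal lymph node and a parietal pleura tumor. The 7 primary lung adenocarcinomas came from mice 1 to 7, 1 per mouse, and no metastasis of mice 5 to 7 was analysed here. Mouse 6 was the only female, and ages are not given in the labels. Each tumor was hybridized to 1 array, so tumors of 1 mouse share an animal, and no tumor from a mouse of another genotype was used. Tumors were dissected away from the surrounding tissue, but each RNA sample still holds whatever other cells the tumor contained.

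ERBB receptors are tyrosine kinases of the cell surface that signal as pairs. EGFR binds EGF, TGF-alpha, amphiregulin, epiregulin, betacellulin and heparin-binding EGF, ERBB2 has no known ligand and is the favored partner of the others, ERBB3 has a weak kinase and recruits phosphatidylinositol 3-kinase, and ERBB4 binds neuregulins and some EGF ligands. The ligands are made as membrane precursors and cut free by ADAM proteases, and signaling runs through RAS to ERK, the pathway that mutant K-ras activates directly. In normal lung, EGFR, ERBB2 and ERBB3 are found mainly in epithelium.

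Erbb2 was lower in all 9 metastases than in the primary tumor of the same mouse (mean log2 ratios within mice between −1.31 and −0.83), and 1 of the Erbb3 probe sets was lower in all 9 with a wider spread. Betacellulin was also lower in 9 of 9 at 1 of its probe sets, without passing the adjusted test. Egfr, Tgfa, Hbegf and Egf had estimated log2 differences within 0.27 of 0 at each of their probe sets, and Erbb4 was at or near the floor of the array. Across the 18 probe sets the median log2 difference was 0.01, with 8 lower and 10 higher, against a median of −0.02 over all 22626 probe sets. Differences below are metastasis minus primary tumor on the log2 scale, from limma with the mouse as a block over the 13 tumors of mice 1 to 4 unless stated, with p-values adjusted over all probe sets (Benjamini-Hochberg). At an adjusted p of 0.05, 0 of the 18 members were called in that fit, where 0.354% of all probe sets were. At an unadjusted p of 0.01, 2 members were lower and 0 higher (Erbb2 and Erbb3), where 2.84% of all probe sets were lower and 1.14% higher, and 3 members were past an unadjusted p of 0.05, where 11.4% of all probe sets were.

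**Figure D1:**
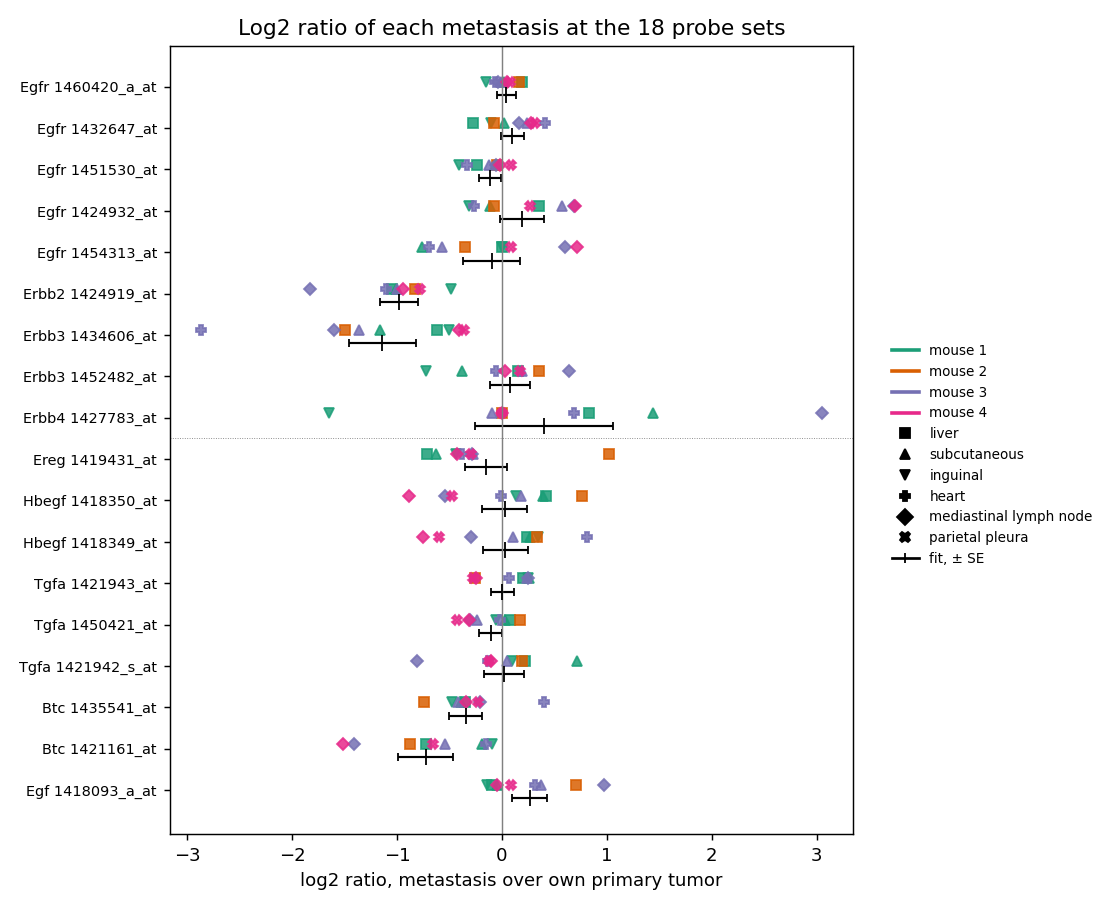
Log2 ratio of each metastasis over the primary tumor of its own mouse at the 18 probe sets, receptors above the dotted line and ligands below it. Colored symbols are single metastases (color for mouse, shape for site), and black bars are the fitted difference ± SE over 13 tumors. All 9 symbols lie left of 0 for Erbb2, Erbb3 1434606_at and Btc 1421161_at, while those of Egfr 1460420_a_at lie close to 0.

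Erbb2 was read by 1 probe set (1424919_at). Its intensity, in arbitrary units on a linear scale, was 63.5 in the subcutaneous, 61.7 in the liver and 91.4 in the inguinal metastasis of mouse 1, against 127.8 in the primary tumor of that mouse. The liver metastasis of mouse 2 had 59.3, against 105.3 in its primary tumor. In mouse 3 the mediastinal lymph node, subcutaneous and heart metastases had 36.7, 65.1 and 60.5, against 129.9 in the primary tumor. In mouse 4 the mediastinal lymph node and parietal pleura metastases had 67.7 and 75.7, against 130.05 in the primary tumor. The primary tumors of mice 5, 6 and 7 had 154.9, 91.6 and 101.5. The metastases and the primary tumors did not overlap, although the highest metastasis (inguinal, mouse 1) and the lowest primary tumor (mouse 6) were nearly level. All 9 metastases lay below all 7 primary tumors at 2 of the 18 members (Erbb2 and Erbb3 1434606_at), and at 0.318% of all probe sets.

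Erbb2 averaged 64.6 ± 14.5 in the metastases (SD, n = 9) and 123 ± 12.03 in their matched primary tumors (SD, n = 4). The log2 difference was −0.98 (SE 0.18, 95% confidence interval −1.38 to −0.57), a ratio of 0.508, with an adjusted p of 0.0651 in limma. Over all 16 tumors, with the mouse as a random block, Erbb2 fell by 0.93 on the log2 scale and passed the test (adjusted p = 0.00760). In that fit 2 of 18 members were called, where 1.24% of all probe sets were. The mean log2 ratios within single mice were −0.85 in mouse 1, −0.83 in mouse 2, −1.31 in mouse 3 and −0.86 in mouse 4. The lymph node metastasis of mouse 3 stood below the other metastases. Without it the log2 difference was −0.90 and passed the adjusted threshold in the 13 tumors (adjusted p = 0.0338, limma). Without any other single metastasis Erbb2 did not pass (adjusted p 0.064 to 0.176, limma), nor without any 1 mouse (adjusted p 0.155 to 0.285, limma).

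Promoter letters are shown for 3 genes: Erbb2, which was lower in 9 of 9 metastases, Btc, which was lower in 9 of 9 at 1 of its 2 probe sets and in 8 of 9 at the other, and Egfr. Promoters of 7 of the 10 genes were found in the RefSeq table used (GRCm38.p6), and Erbb3, Ereg and Hbegf were not among them. Each run is the 250 bases before the annotated start of the gene, read 5′ to 3′ on the strand of the gene, at chr11:98412234-98412483 (+) for Erbb2, chr5:91402995-91403244 (−) for Btc and chr11:16751953-16752202 (+) for Egfr. Capitals mark matches, on both strands, to 4 motifs: the ETS core GGAA, the AP-2 palindrome GCCNNNGGC, the E-box CAGGTG bound by SNAI and ZEB factors, and the TATA box TATAAA. The ETS core reads TTCC where it lies on the other strand.
Erbb2: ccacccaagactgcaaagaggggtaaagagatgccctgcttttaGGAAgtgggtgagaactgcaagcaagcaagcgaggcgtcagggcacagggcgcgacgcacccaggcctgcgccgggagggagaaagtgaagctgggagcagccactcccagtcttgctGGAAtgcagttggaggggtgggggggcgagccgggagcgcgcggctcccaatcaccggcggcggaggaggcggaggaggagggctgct
Btc: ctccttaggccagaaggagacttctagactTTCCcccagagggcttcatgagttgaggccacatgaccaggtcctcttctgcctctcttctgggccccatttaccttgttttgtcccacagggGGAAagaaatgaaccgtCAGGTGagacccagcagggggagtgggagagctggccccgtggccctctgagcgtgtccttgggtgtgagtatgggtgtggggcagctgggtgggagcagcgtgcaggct
Egfr: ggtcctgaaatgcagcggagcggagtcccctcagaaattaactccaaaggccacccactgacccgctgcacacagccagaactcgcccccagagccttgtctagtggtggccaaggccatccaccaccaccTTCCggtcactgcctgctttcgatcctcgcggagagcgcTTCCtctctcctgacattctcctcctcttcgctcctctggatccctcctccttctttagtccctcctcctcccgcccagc
The ETS core occurred 2 times in each of the 3 windows, and at least once in 93.4% of 32851 promoter windows of the same length. The first ETS core of Erbb2 began 206 bases before the start and the second 88 bases before it. The E-box was found once in the Btc window, beginning 110 bases before the start, and in 17.2% of all windows. The AP-2 palindrome and the TATA box were in none of the 3 windows and in 13.7% and 12.4% of all windows. These matches describe the letters only, and nothing in the array data bears on binding.

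Erbb3 was read by 2 probe sets, of which 1 was lower in the metastases and the other showed no clear difference. At 1434606_at the intensity was 301.9 in the subcutaneous, 442.2 in the liver and 478.3 in the inguinal metastasis of mouse 1, against 677.0 in the primary tumor. It was 216.8 in the liver metastasis of mouse 2, against 612.1 in the primary tumor. In mouse 3 the lymph node, subcutaneous and heart metastases had 194.6, 229.6 and 80.8, against 590.6 in the primary tumor. In mouse 4 the lymph node and parietal pleura metastases had 389.7 and 403.9, against 518.0 in the primary tumor, and the primary tumors of mice 5, 6 and 7 had 659.5, 788.2 and 737.8. The metastases of mouse 3 and the liver metastasis of mouse 2 were the lowest 4 of the 9, and no metastasis reached the lowest primary tumor.

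The mean at this Erbb3 probe set was 304 ± 133 in the metastases (SD, n = 9) and 599 ± 65.5 in the matched primary tumors (SD, n = 4). The log2 difference was −1.14 (SE 0.32, 95% confidence interval −1.85 to −0.42), a ratio of 0.454, and did not pass the adjusted test in the 13 tumors (adjusted p = 0.197, limma). Over all 16 tumors Erbb3 fell by 1.23 on the log2 scale (adjusted p = 0.0366, limma), a call that was lost when any of 10 of the 16 tumors was left out (adjusted p 0.0515 to 0.0841). The mean log2 ratios were −0.76 in mouse 1, −1.50 in mouse 2, −1.95 in mouse 3 and −0.38 in mouse 4, and limma's test of a difference between mice gave an adjusted p of 0.928. Without the heart metastasis the log2 difference in the 13 tumors was −0.99 (adjusted p = 0.0910). The other Erbb3 probe set (1452482_at) gave 78.9 ± 16.9 in metastases (SD, n = 9) and 75.2 ± 17.8 in matched primary tumors (SD, n = 4), a log2 difference of 0.08 (95% confidence interval −0.35 to 0.50, adjusted p = 0.920), so the lower level of Erbb3 rests on 1 of its 2 probe sets.

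**Figure D2:**
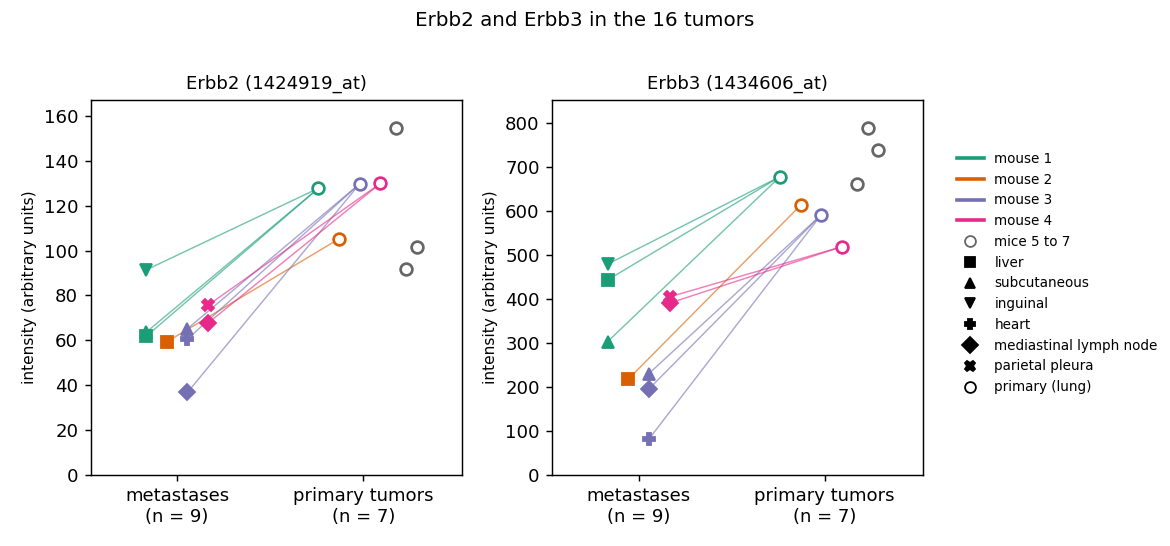
Intensity (arbitrary units, linear axis from 0) of Erbb2 and of Erbb3 at 1434606_at in 9 metastases and 7 primary tumors, with lines joining each metastasis to the primary tumor of its mouse. Every line runs from a lower metastasis to a higher primary tumor, and the lowest points are the lymph node metastasis of mouse 3 for Erbb2 (36.7) and the heart metastasis of mouse 3 for Erbb3 (80.8).

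The metastases also differed from the primary tumors in the genes of several cell types, listed with earlier results of these data known. The study names Cldn3, Scgb1a1, Sftpa1 and Sftpc among the genes most lowered in these metastases. All 15 epithelial markers measured had a negative log2 difference (median −1.14). The 2 called were the tight junction gene Cldn3 (−1.14, adjusted p = 0.0236, limma) and the membrane protease gene St14 (−1.69, adjusted p = 0.0243, limma). At an unadjusted p of 0.01, 9 were lower, where 2.92% of all genes were. The size was uneven: Krt8 had −0.39 and Ocln −0.11 (each lower in 5 of 9 metastases), Krt18 −0.17 (6 of 9) and Cdh1 −0.72 (7 of 9). Krt18 averaged 3253 in metastases and 3098 in matched primary tumors. Their summed intensity spanned 5631 to 14784 in metastases and 8578 to 19849 in primary tumors. All 9 markers of alveolar type 2 cells had a negative difference (median −2.27, none called), as had all 5 of club cells (median −1.79). Of the club cell genes, Scgb1a1 and Scgb3a1 were called. Over all 16 tumors, 9 of the 15 epithelial, 3 of the 9 alveolar type 2 and 3 of the 5 club cell genes were called lower. In that fit 138 of 12393 genes were called lower. By metastasis, the median log2 ratio of the epithelial genes was lowest in the heart metastasis of mouse 3 (−1.70), where Erbb3 was also lowest (−2.87), and was −0.86 in the lymph node metastasis of mouse 3, where Erbb2 was lowest (−1.82). In mouse 4 the epithelial median was −1.40 in the lymph node and −0.71 in the pleural metastasis, while Erbb3 had −0.41 and −0.36. In such bulk samples, fewer epithelial cells and less RNA per cell cannot be told apart, and the part of epithelial content in the Erbb2 and Erbb3 differences was not tested.

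**Figure D3:**
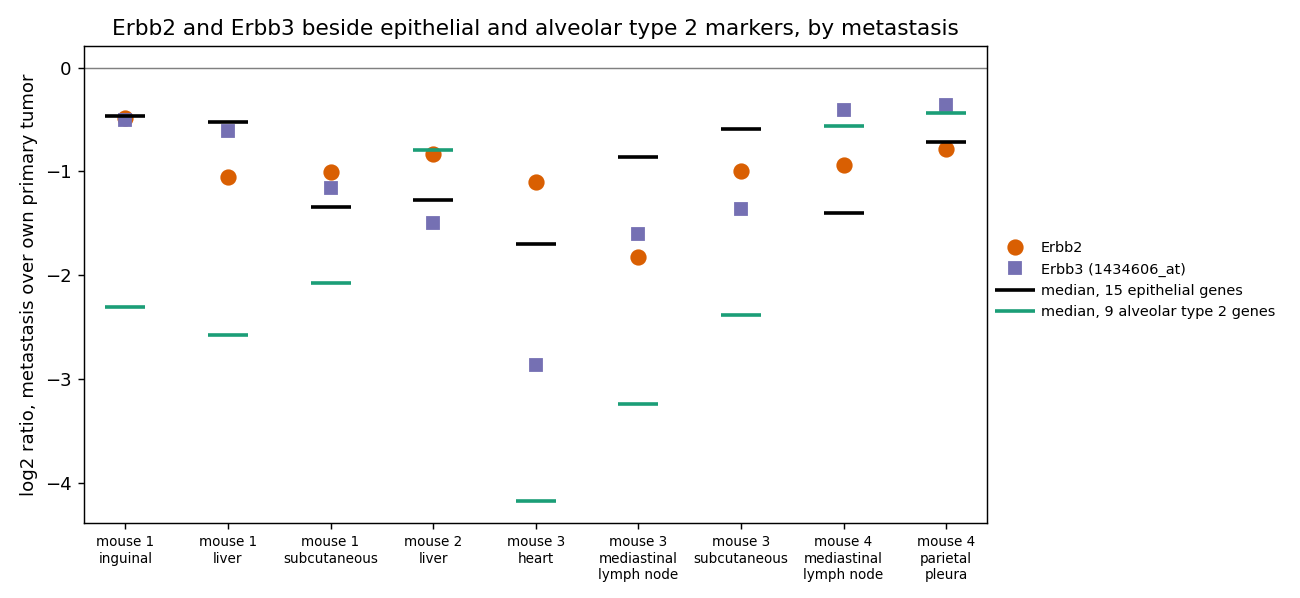
Log2 ratio of each of the 9 metastases over its own primary tumor for Erbb2 (circles) and Erbb3 1434606_at (squares), with horizontal bars at the median of 15 epithelial and 9 alveolar type 2 genes. Erbb2 lies between −1.82 and −0.48, and Erbb3 between −2.87 and −0.36, with the heart metastasis of mouse 3 lowest for Erbb3 and for both marker medians.

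Markers of host organs differed between metastases. The summed hepatocyte intensity was 10113 (mouse 1) and 5956 (mouse 2) in the liver metastases, but also 8251 in the inguinal and 6595 in the subcutaneous metastasis of mouse 1, and 1972 in the lymph node and 2416 in the pleura metastasis of mouse 4, against 860 to 1726 in the primary tumors. The median log2 ratio of the hepatocyte genes to the primary tumor of the same mouse was 2.93 and 1.42 in the liver metastases of mice 1 and 2, and lay between −0.69 and 0.32 in the other 7. The sum of heart and skeletal muscle genes was 3443 in the heart metastasis, 1525 in the inguinal metastasis of mouse 1 and 1013 in the subcutaneous metastasis of mouse 3, against 351 to 473 in primary tumors. Lymphocyte genes summed to 429.7 (mouse 3) and 388 (mouse 4) in the lymph node metastases, against 315 to 381 in primary tumors. Of the 9 lymphocyte genes measured, 6 had a positive and 3 a negative log2 difference (median 0.08). The T cell gene Cd3d was at the floor in all 4 matched primary tumors. Other T cell genes were not: Cd3g averaged 62.2 there and 46.7 in metastases, and Cd3e 7.9 and 8.3. Of the other lists, the median log2 differences were −0.95 for alveolar type 1 cells (6 of 6 lower), −0.33 for macrophages (5 of 7 lower), −0.32 for endothelium (10 of 10 lower) and 0.69 for fibroblasts and mesenchyme (7 of 10 higher), and lay between −0.05 and 0.23 for mesothelium, keratinocytes and mammary or salivary gland. Their part in the values of the members was not tested.

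Egfr, the receptor for most of the ligands measured here, did not pass the test at any of its 5 probe sets. At the brightest (1460420_a_at) the intensity was 361 ± 28.8 in metastases (SD, n = 9) and 352 ± 22.8 in matched primary tumors (SD, n = 4), a log2 difference of 0.04 with a 95% confidence interval of −0.16 to 0.25 (adjusted p = 0.904, limma). The other 4 probe sets had log2 differences of 0.10 (1432647_at), −0.11 (1451530_at), 0.20 (1424932_at) and −0.10 (1454313_at), with adjusted p of 0.748 or more. The widest interval, at 1454313_at, spanned −0.71 to 0.51. At 1451530_at, 8 of 9 metastases were below their own primary tumor, by little (90.2 ± 14.2 in metastases and 96.5 ± 11.7 in matched primary tumors, SD, n = 9 and 4).

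The Egfr probe set 1424932_at separated 1 mouse from the others. Its intensity was 121.9 in the lymph node, 112.6 in the subcutaneous and 63.0 in the heart metastasis of mouse 3 and 75.6 in the primary tumor of that mouse. In the 12 tumors of the other mice it lay between 24.9 and 40.8, with 40.8 in the liver metastasis of mouse 1 as the highest. Those values are dim, as the 25th percentile of all values was 24.3. Over the 16 tumors the Pearson correlation of 1424932_at with the other 4 Egfr probe sets lay between 0.03 and 0.54. All 4 tumors of mouse 3 were above every other tumor. The share of all probe sets with such a separation of 1 mouse was not counted. At each of the other 4 Egfr probe sets, at least 1 tumor of mouse 3 lay below a tumor of another mouse. The highest value of 1451530_at was also in mouse 3, in its primary tumor (112.5), with its lymph node metastasis next (108.6), and the heart metastasis at 89.4 was below 104.1 in the pleural metastasis of mouse 4.

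**Figure D4:**
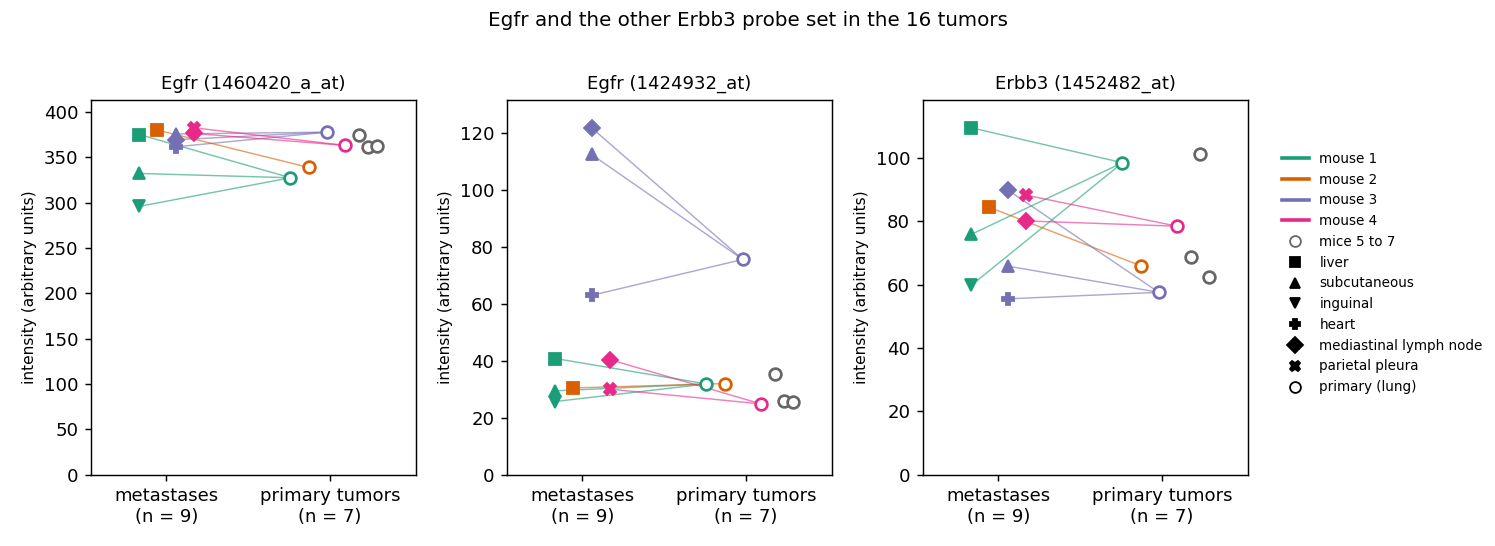
Intensity (arbitrary units, linear axis from 0) of 2 Egfr probe sets and of the other Erbb3 probe set in 9 metastases and 7 primary tumors, with lines joining tumors of 1 mouse. Egfr 1460420_a_at is level between the groups, Egfr 1424932_at is above 60 only in the 4 tumors of mouse 3, and Erbb3 1452482_at overlaps between the groups.

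Erbb4, a receptor for neuregulins, was at the floor of 1 in 8 tumors and below 24.3, the 25th percentile of all values, in all 16. Its highest values were 8.9 in the lymph node metastasis of mouse 3, against 12.9 in the primary tumor of mouse 5. No direction can be read at this level.

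Among the ligand members, betacellulin (Btc, a ligand of EGFR and ERBB4) had the largest log2 difference below 0. At 1421161_at the metastases of mouse 1 had 92.8 (subcutaneous), 63.9 (liver) and 99.0 (inguinal), against 105.6 in the primary tumor. The liver metastasis of mouse 2 had 94.1, against 173.0 in its primary tumor. The lymph node, subcutaneous and heart metastases of mouse 3 had 17.1, 31.2 and 41.0, against 45.4, and those of mouse 4 had 76.6 (lymph node) and 138.3 (pleura), against 218.2. Each metastasis was below its own primary tumor, but the groups overlapped. The log2 difference was −0.73 (SE 0.26, 95% confidence interval −1.30 to −0.15), and it did not pass the adjusted test (adjusted p = 0.311, limma). Lower levels in 9 of 9 metastases were found for 3 of 18 members and for 3.6% of all probe sets.

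The other Btc probe set (1435541_at) averaged 122 ± 38.1 in metastases (SD, n = 9) and 145 ± 14.2 in matched primary tumors (SD, n = 4), with 8 of 9 metastases below their own primary tumor (log2 difference −0.34, adjusted p = 0.452, limma). The exception was the heart metastasis of mouse 3, with 210.8, against 159.4 in its primary tumor. Both Btc probe sets gave a negative difference, and neither passed the adjusted test. Their log2 values did not rise and fall together across tumors. The Pearson correlation between them was −0.23 over the 16 tumors, −0.47 over the 9 metastases and −0.41 over the 7 primary tumors.

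Epiregulin (Ereg, a ligand of EGFR and ERBB4) was below the own primary tumor in 8 of 9 metastases. In mouse 1 the subcutaneous, liver and inguinal metastases had 147.9, 139.9 and 169.6, against 229.2 in the primary tumor. In mouse 3 the lymph node, subcutaneous and heart metastases had 152.5, 153.6 and 143.1, against 186.2, and in mouse 4 the metastases had 263.8 (lymph node) and 289.3 (pleura), against 353.9. The liver metastasis of mouse 2 had 362.5, against 178.3 in its primary tumor, and was the highest of all 16 tumors. The mean log2 difference over the 13 tumors was −0.15 (adjusted p = 0.838). In limma's test of a difference between mice, in which mouse 2 enters with 1 metastasis, 0 of 18 members were called, where 0.124% of all probe sets were (Ereg adjusted p = 0.378). Ereg was the only member at an unadjusted p of 0.01 in that test, where 2.04% of all probe sets were.

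Heparin-binding EGF (Hbegf, which binds EGFR and ERBB4) had log2 differences of 0.03 at both of its probe sets (95% confidence intervals −0.45 to 0.51). At 1418350_at the metastases lay between 230.2 and 478.9 and the 7 primary tumors between 223.4 and 580.5. Both metastases of mouse 4 were below its primary tumor (230.2 and 304.7 against 424.6), and all 3 of mouse 1 were above theirs (245.8 to 299.7 against 223.4). At 1418349_at the highest of 16 tumors was the heart metastasis of mouse 3 (320.3, against 182.6 in its primary tumor), and the lowest metastasis was the lymph node metastasis of mouse 4 (136.5, against 229.3).

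TGF-alpha (Tgfa, an EGFR ligand made by many epithelial tumors) was level across the groups. Its 3 probe sets had log2 differences of 0.01 (1421943_at), −0.11 (1450421_at) and 0.02 (1421942_s_at), with 95% confidence intervals that stayed between −0.40 and 0.44. The intensity at 1421943_at was 187 ± 26.8 in metastases (SD, n = 9) and 185 ± 27.8 in matched primary tumors (SD, n = 4). Egf, the founding ligand, was dim, at 55.9 ± 10.4 in metastases (SD, n = 9) and 48.1 ± 16.4 in matched primary tumors (SD, n = 4), a log2 difference of 0.27 (95% confidence interval −0.10 to 0.63, adjusted p = 0.603).

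Amphiregulin (Areg, a low-affinity EGFR ligand) could be followed only at 1421134_at, a probe set that the study names Areg in its list of changed genes. Because that list was chosen on these tumors, the values are a description with no test. In mouse 1 the subcutaneous, liver and inguinal metastases had 352.1, 325.0 and 634.6, against 830.5 in the primary tumor. The liver metastasis of mouse 2 had 168.8, against 218.6, and the lymph node, subcutaneous and heart metastases of mouse 3 had 128.4, 108.1 and 150.0, against 186.1. In mouse 4 the metastases had 662.3 (lymph node) and 681.1 (pleura), against 1025 in the primary tumor. The intensity was lower in 9 of 9 metastases than in their own primary tumors, but differed more between mice than between tissues, and the 2 groups overlapped widely.

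**Figure D5:**
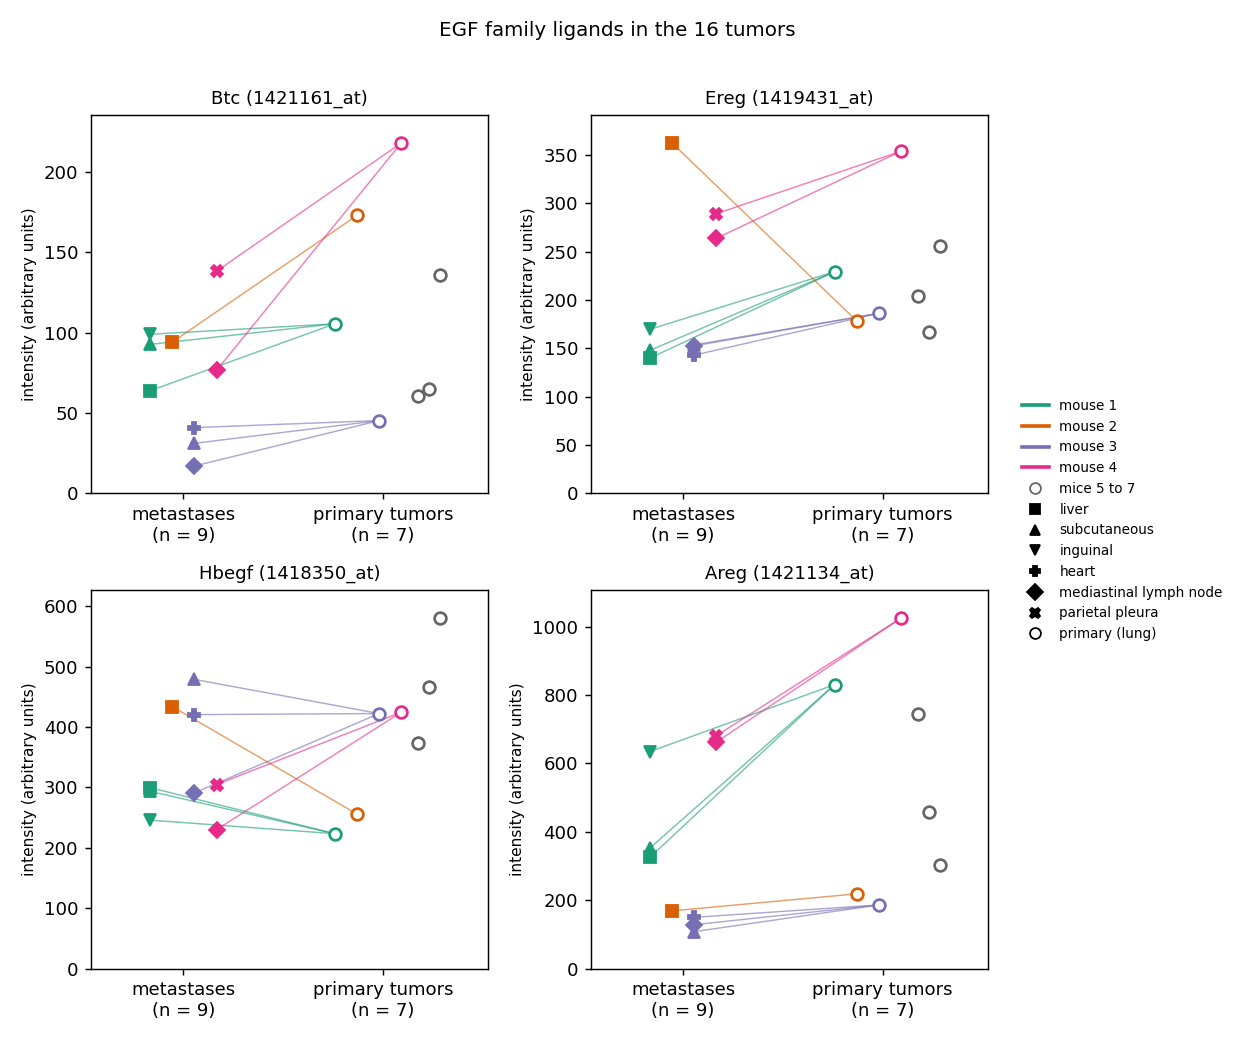
Intensity (arbitrary units, linear axes from 0) of 4 ligand probe sets in 9 metastases and 7 primary tumors, with lines joining each metastasis to the primary tumor of its mouse. Btc and Areg are lower in every metastasis than in its own primary tumor, Ereg in all but the liver metastasis of mouse 2 (362.5 against 178.3), and the lines of Hbegf run in both directions. The Areg probe set is not among the 18 members.

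Differences between metastasis sites were tested with the mouse in the model over liver (2 tumors), subcutaneous or inguinal (3), heart (1), mediastinal lymph node (2) and parietal pleura (1). No member passed at an adjusted p of 0.05 in limma, where 0.00442% of all probe sets did, and 4 of 18 were at an unadjusted p of 0.05, where 7.27% of all probe sets were. These were Btc 1421161_at, both Hbegf probe sets and Egfr 1454313_at, with adjusted p between 0.522 and 0.679 in limma. For Btc the fitted log2 difference from the primary tumors was −1.40 (SE 0.17) in the lymph nodes, −0.87 (SE 0.17) in the liver, −0.60 (SE 0.24) in the pleura, −0.34 (SE 0.15) at subcutaneous or inguinal sites and −0.07 (SE 0.23) in the heart. For Hbegf 1418350_at it was 0.55 (SE 0.19) in the liver and −0.67 (SE 0.19) in the lymph nodes. These fits leave 4 residual degrees of freedom, and heart and pleura are 1 tumor each. Of the 16 tumors, 1 was below the 25th percentile of all values (24.3) at Btc 1421161_at, the lymph node metastasis of mouse 3 (17.1). At Egfr 1454313_at, 2 tumors were below it.

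Erbb2 was lower at every site, with fitted log2 differences of −1.37 (SE 0.27) in the lymph nodes, −0.995 (SE 0.37) in the pleura, −0.95 (SE 0.27) in the liver, −0.86 (SE 0.35) in the heart and −0.73 (SE 0.24) at subcutaneous or inguinal sites, and limma's test between sites gave an adjusted p of 0.808. The ranges of ± SE of neighbors in that order overlapped. Erbb3 1434606_at had −2.57 (SE 0.49) in the heart, −1.06 in the liver (SE 0.37) and at subcutaneous or inguinal sites (SE 0.33), −1.004 (SE 0.37) in the lymph nodes and −0.66 (SE 0.51) in the pleura, with an adjusted p of 0.708 between sites (limma). The ± SE range of the heart did not overlap that of the liver, and the heart value rests on the tumor with the highest muscle gene sum.

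Among the primary tumors alone, those of mice 5 to 7 were set against those of mice 1 to 4. No member passed at an adjusted p of 0.05 in limma, where 1.02% of all probe sets did, and 1 was at an unadjusted p of 0.05 (Egfr 1454313_at, log2 difference 0.43, adjusted p = 0.241), where 20.6% of all probe sets were. The log2 difference between these primary tumors was −0.12 (SE 0.21) for Erbb2 and 0.28 (SE 0.14) for Erbb3 1434606_at.

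The other genes of the pathway were taken from lists chosen with earlier results of these data known, each gene at its brightest probe set. Of these genes, 0 passed at an adjusted p of 0.05 in limma. Over all 12393 genes, 2.92% were lower and 1.24% higher at an unadjusted p of 0.01. Of the adaptors and proximal signaling genes, 1 of 25 was lower at that level and none higher. It was Grb7, an adaptor that binds ERBB2, with 129 ± 77.8 in metastases (SD, n = 9) and 221 ± 61.9 in matched primary tumors (SD, n = 4), and a log2 difference of −0.86 (SE 0.27, adjusted p = 0.242), lower in 9 of 9. Grb7 did not separate the groups: the primary tumors of mice 5, 6 and 7 had 78.9, 87.4 and 118.1, against 44.4 to 255.7 in the metastases, and over all 16 tumors the adjusted p was 0.564.

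Of the inhibitors and turnover genes, 1 of 19 was lower at an unadjusted p of 0.01 and none higher. It was Errfi1 (MIG6), a feedback inhibitor that binds the EGFR kinase, at 666 ± 290 in metastases (SD, n = 9) and 1221 ± 269 in matched primary tumors (SD, n = 4). The log2 difference was −0.91 (SE 0.23, adjusted p = 0.155, limma), lower in 9 of 9. The metastases spanned 271.8 in the lymph node of mouse 3 to 1110 in the lymph node of mouse 4, and the 7 primary tumors 891.0 in mouse 3 to 1471 in mouse 2, so the groups overlapped. Over all 16 tumors the log2 difference of Errfi1 was −0.93, just short of the adjusted threshold (adjusted p = 0.0528, limma). Of the 3 other ERBB ligands measured (Epgn, Nrg3 and Nrg4), 9 ligand shedding genes and 19 ERK output genes, none was at an unadjusted p of 0.01 in either direction, and the list medians were −0.14, −0.07 and 0.01. Adam17, the main sheddase of EGFR ligands, had a log2 difference of −0.03 (SE 0.15), and Dusp6, an ERK phosphatase that ERK itself induces, 0.16 (SE 0.19).

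The genes whose log2 values over the 16 tumors were most like those of each member were listed by Pearson correlation, as a description over tumors that share mice and fall into 2 tissues. For Erbb3 1434606_at they were Crb3 (r = 0.93), Celsr1 (0.91) and Mal2 (0.91), with r of 0.96, 0.93 and 0.88 over the 9 metastases alone and 0.57, 0.22 and 0.53 over the 7 primary tumors alone. Crb3 encodes an apical polarity protein, Celsr1 a planar polarity cadherin and Mal2 a protein of apical transport. For Erbb2 they were Acss1 (0.88), the club cell gene Scgb1a1 (0.88) and Limch1 (0.87), with r of 0.60, 0.54 and 0.79 over metastases alone and 0.86, 0.49 and 0.21 over primary tumors alone. For Btc 1435541_at the first was Rhbdf1 (0.87), which encodes an inactive rhomboid protein that acts on ADAM17, and for Ereg it was Acsl4 (0.87).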

How the data were processed

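Expression was measured in 16 mouse tumors on Affymetrix Mouse Expression Array 430A 2.0, with 1 array per tumor. The authors computed the deposited intensity values in dChip from the difference of perfect match and mismatch probes, with invariant set normalization, after Microarray Suite, and the values are linear. The deposited files name no genome build, so no positions are given for probe sets. Promoter sequences with their coordinates, and the order of neighboring genes, come from RefSeq. Of the deposited probe sets, 64 controls were left out and 22626 tested. Array medians lay between 75.0 and 85.5, and arrays correlated at 0.900 to 0.969. The number of arrays, not counting depth, limits the precision.

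Values were floored at 1 before the log2 step. Comparisons used limma 3.58.1 (R 4.3.3) with Benjamini-Hochberg adjustment over 22626 probe sets. The mouse was a fixed block for 13 tumors and a random block (duplicateCorrelation, consensus correlation 0.238) for 16. The labels give the mouse of each tumor, so tumors of 1 mouse share an animal. As a check, the deviations of a metastasis and its own primary tumor correlated at −0.00 to 0.40, the highest of 4 for 6 of 9 metastases. Metastases of 1 mouse entered as separate tumors, so p-values measure the spread between tumors.

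The members and gene lists were chosen with earlier results of these data known. Named by rule were all member probe sets, pathway genes called or at an unadjusted p of 0.01 with the same sign in 9 metastases, and the 3 genes most correlated with each bright member. The scripts were tested on simulated data. Alternatives were other floors, normalizations, filters, variance models, the methods' paired t-test, and left-out tumors, mice and sites.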

Additional observations from a re-analysis of the deposited data

Results flagged for a closer look

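Dixon's test was run on log2 values in 36 groups of 7 or 9 tumors (18 probe sets, metastases and primary tumors). The intensities given below are linear. In the test, 3 groups held a tumor whose gap to its nearest neighbor was large against the range of the group. Chance alone would give about 1 in 20 such groups. All 3 tumors came from mouse 3. Erbb2 was 36.658 in the mediastinal lymph node metastasis, with the other 8 metastases between 59.3 and 91.4. Erbb3 1434606_at was 80.765 in the heart metastasis, with the others between 194.6 and 478.3. Egfr 1424932_at was 75.646 in the primary tumor, with the other 6 primary tumors between 24.9 and 35.4, and the 3 metastases of that mouse were high as well (63.0 to 121.9).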

How the results depend on the processing

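Erbb2 kept a negative log2 difference in all 26 alternatives to the 13-tumor fit (−1.07 to −0.82), which include the fit of all 16 tumors and, as 1 and the same fit, those without mouse 2 and without its liver metastasis, and Erbb3 1434606_at did too (−1.39 to −0.82), as did both Btc probe sets. The estimates near 0 of both Hbegf and 2 Tgfa probe sets took the other sign in 7 to 9 alternatives, with no call. The count of members called at an adjusted p of 0.05 was 0, and it was 1, Erbb2, with 16 added before log2 (adjusted p = 0.0282), with dim probe sets left out (0.0230), with a variance trend and robust prior (0.0222) and in the methods' paired t-test (0.0101), which takes the 9 ratios as independent. With all 16 tumors it was 2. Over fits without a replicate, mouse or site it ranged from 0 to 1, the 1 being Erbb2 without the lymph node metastasis of mouse 3. The adjusted p of Erbb2 ranged from 0.00760 to 0.296 over the alternatives and that of Erbb3 from 0.0366 to 0.457. The highest Erbb2 value was that of 1 mean ratio per mouse, a fit that called 0 of all probe sets.

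The count at an unadjusted p of 0.01 was 2. It was 1 with no replicate block (Erbb2, adjusted p = 0.0772) and 1 without the subcutaneous or inguinal metastases, and over the fits without a replicate or mouse it ranged from 1 without mouse 1 to 4 without the heart metastasis of mouse 3, where both Btc probe sets joined. The methods' t-test and the variance trend each gave 3 members at that threshold, Btc 1421161_at being the third, and with 1 mean ratio per mouse Btc 1421161_at was past it and Erbb3 1434606_at was not. Over all probe sets, 80 were called, against 43 without the block, 174 with 16 added, 54 with arrays centred, 236 with dim probe sets left out, 224 with the variance trend, 0 with 1 mean ratio per mouse and 884 in the methods' t-test. Of those at an unadjusted p of 0.01, 71.3% were lower, against 58.1% after quantile normalization and 61.1% after centring.

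For the 16 tumors the alternatives were chosen after seeing the data. Other floors, normalizations and the filter gave 2 called members throughout. Leaving out 1 tumor gave 1 to 2. Erbb2 remained called when any 1 of the 16 was left out (adjusted p 0.00373 to 0.0282). Erbb3 lost its call in 10 of the 16 (0.0515 to 0.0841): without the subcutaneous metastasis of mouse 1, the liver metastasis of mouse 2, the lymph node or subcutaneous metastasis of mouse 3, or the primary tumor of mouse 1, 2, 3, 5, 6 or 7. The counts for sites, for mice and between primary tumors were 0 under each alternative run. Array signal near the floor limits Erbb4.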

Other observations

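On chromosome 11 the annotated order around Erbb2 is Stard3, Tcap, Pnmt, Pgap3, Erbb2, Mien1 and Grb7. Besides Grb7 above, Stard3, a cholesterol-binding protein of endosomes, was lower in 8 of 9 metastases (143 against 197 in matched primary tumors, log2 difference −0.47, adjusted p = 0.221, limma), and Mien1 was lower in 8 of 9 (159 against 221, −0.38, adjusted p = 0.480). Tcap and Pnmt had log2 differences of 0.06 and −0.11, and none of the neighbors measured passed the adjusted test in either fit. On chromosome 5, Epgn, Ereg, Areg, Btc and Parm1 follow each other. Parm1 was lower in 9 of 9 metastases (271 against 451, −0.66, adjusted p = 0.224, limma), as were 3.6% of all probe sets. Epgn was lower in 7 of 9 (61.2 against 77.2, −0.27, adjusted p = 0.591, limma). The other neighbors measured there had log2 differences of −0.24 (Cxcl1), 0.16 (Cxcl2), −0.28 (Rchy1) and −0.37 (Cdkl2). The share of all probe sets lower in 7 or 8 of 9 was not counted.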
